A study of Mus musculus with 9 samples.

Results

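The sodium pump (Na+/K+-ATPase) exchanges sodium ions inside the cell for potassium ions outside it at the cost of ATP. It restores the gradients that action potentials run down, so motor neurons, which fire in long trains, depend on it. Each pump pairs a catalytic alpha subunit, which binds the ions and splits ATP, with a glycosylated beta subunit, which the alpha subunit needs in order to fold, leave the endoplasmic reticulum and stay in the plasma membrane. Small FXYD proteins can join the pair and tune its affinity for ions. The genes described here are the beta subunits Atp1b1, Atp1b2 and Atp1b3, chosen by name. All 3 had a row among the 21457 genes of the corrected count matrix of spinal cholinergic nuclei. The FXYD proteins and other transporters are described after them.

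The nuclei came from 12 mice, 8 weeks old and of both sexes, that carried Chat-IRES-Cre and Sun1-sfGFP, each over a wild-type allele. Chat-IRES-Cre drives recombination wherever Chat, the gene of choline acetyltransferase, is or once was expressed, and Sun1-sfGFP then marks the nuclear envelope permanently, so nuclei that used Chat only earlier in life could also be sorted. All mice carried the same alleles, none was treated, and 4 mice were pooled for each replicate (replicate 1 with 2 males and 2 females, replicate 2 with 4 males, replicate 3 with 4 females). Cervical, thoracic and lumbar/sacral cord were taken apart in every pool, which gave 9 single-nucleus libraries, and region and pool are the only groups.

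The authors' annotation divides 16042 nuclei into 21 clusters, namely the skeletal motor neurons S1 to S3, the visceral motor neurons V1 to V10, which drive autonomic ganglia, and the cholinergic interneurons I1 to I8. S2 holds alpha motor neurons, which contract muscle, with 1285 nuclei. S3 holds gamma motor neurons, which set the tension of muscle spindles, with 2241 nuclei, and S1 is named Type 3, with 1528. Markers were looked at for each name. Stk32a, an alpha marker, was at 101 to 545 CPM (counts in every 1000000 corrected counts) in S2 and at 4.30 to 18.5 in S3, and Nrp2, a gamma marker, lay at 395 to 532 CPM in S3 and at no more than 79.8 in S2. Gpr149, a marker of Type 3, was at 385 to 464 CPM in S1, at 29.6 to 229 in S2 and at no more than 25.0 in S3. The S2 nuclei of the library labelled cervical 2 went against their name in other markers and are described beside the result they touch. Levels are CPM of the corrected counts summed over the nuclei of 1 cluster in 1 library, where that library gave at least 10 nuclei. Because they come from nuclei, they measure RNA in the nucleus. The corrected counts had passed through a model of depth, and totals still differed between libraries.

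Several libraries stood apart. The library labelled cervical 2 had 9.68 CPM of Hoxa9 over all its nuclei, against 0.412 and 0.213 in cervical 1 and 3 and 9.35 and 9.04 in thoracic 1 and 3. The library labelled thoracic 2 had 0.507. Both go against their labels. Regions were therefore also compared without both libraries, and some of those values are given below. In addition, 4 libraries (cervical 1, cervical 3, thoracic 1 and lumbar/sacral 1) held 3.45 to 7.51 CPM of the microglial gene P2ry12 and 30335 to 34023 CPM of the nuclear RNA Malat1, and the other 5 held 22.9 to 78.5 and 82976 to 124407 CPM. Median totals of corrected counts per nucleus ran from 4712 to 16127 between libraries, and 33 barcodes occurred in more than 1 library.

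Atp1b1 lies on the minus strand of chromosome 1 (GRCm38, 164437109 to 164458355), and 617 bases of it are shared with Nme7 on the other strand. Whether reads were counted by strand is not stated in the sources used here, and the part of that stretch in the counts was not tested. Atp1b2 lies on chromosome 11 (69599736 to 69605942) and Atp1b3 on chromosome 9 (96332655 to 96364442), both also on the minus strand and with no other annotated gene over them. The stretches just upstream of the annotated starts of Atp1b1 and Atp1b3 are shown because these genes carried the differences between types and classes. They are RefSeq sequences of GRCm38.p6, chr1:164458356-164458605 for Atp1b1 and chr9:96364443-96364681 for Atp1b3, both on the minus strand and written 5′ to 3′. Capitals mark matches on either strand to TATATA, to CCAAT or to GGGCGG, the GC box of Sp factors, and no matches overlapped.
Atp1b1: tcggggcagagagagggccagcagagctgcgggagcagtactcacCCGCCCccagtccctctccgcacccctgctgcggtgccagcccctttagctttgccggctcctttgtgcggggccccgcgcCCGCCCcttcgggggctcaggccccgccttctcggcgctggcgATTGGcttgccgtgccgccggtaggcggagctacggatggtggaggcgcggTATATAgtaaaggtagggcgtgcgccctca
Atp1b3: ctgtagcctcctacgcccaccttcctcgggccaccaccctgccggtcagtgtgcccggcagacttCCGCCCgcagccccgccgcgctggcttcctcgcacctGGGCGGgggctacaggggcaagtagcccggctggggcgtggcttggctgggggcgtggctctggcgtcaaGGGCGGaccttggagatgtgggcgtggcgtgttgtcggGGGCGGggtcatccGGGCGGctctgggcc

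Both stretches were rich in G and C (70.4% of 250 bases for Atp1b1 and 73.6% of 239 for Atp1b3). Atp1b1 held 1 TATATA, 1 CCAAT and 2 GGGCGG. Atp1b3 held 5 GGGCGG and neither of the other motifs. Of 32851 promoters, 5.25% held TATATA, 33.8% CCAAT and 32.7% GGGCGG in a window of 250 bases, and 31.2% held GGGCGG in a window of 239. Neither stretch held AAGGTCA, which estrogen-related receptors such as the one Esrrg encodes bind (4.08% of promoters in 250 bases), or TGACGTCA, the full site of CREB (1.55%).

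Atp1b1, the beta subunit found most widely, was lower in alpha than in gamma motor neurons. In S2 its level was 112 ± 56.3 CPM (SD, n = 9 libraries), from 66.7 in lumbar/sacral 3 over a median of 93.1 to 249 in cervical 2. In S3 it was 212 ± 36.8 CPM (SD, n = 9), from 163 in cervical 3 over a median of 202 to 272 in thoracic 2. S1 lay between them at 149 ± 24.9 CPM (SD, n = 9), from 117 to 196. Level rose from S2 over S1 to S3 in 8 of the 9 libraries, and the library labelled cervical 2 was the exception.

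The log2 fold change of Atp1b1 was -0.99 (SE 0.12) for S2 minus S3 (adjusted p = 3.55e-07, limma with a term for the library and Benjamini-Hochberg adjustment over 11465 genes). It was -0.50 (SE 0.12) for S2 minus S1 (adjusted p = 0.00293, limma) and -0.49 (SE 0.12) for S1 minus S3 (adjusted p = 0.00399, limma). These 3 comparisons share their samples in pairs, and the types had been drawn from these same nuclei and genes, so the tests describe the authors' labels. Calls were common, with 31.1% of the genes tested called for S2 minus S3 (13.5% as lower in S2), 25.4% for S2 minus S1 (12.3% as lower) and 19.8% for S1 minus S3 (8.69% as lower). Of the 3 beta subunits, 2 were tested there and both were lower in S2, with a median of -0.60 against 0.01 over all genes tested.

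The high value in S2 of the library labelled cervical 2 came with other signs that set those nuclei apart. Tns1, a marker of skeletal motor neurons, was found in 19 of its 71 S2 nuclei (26.8%), against 83.6 to 97.8% of S2 nuclei in the other libraries. Its S2 nuclei also held 144 CPM of Chat, where the others had 232 to 308, and the most Fbn2 (71.6 CPM), a visceral marker, and Pax2 (45.1 CPM), a marker of interneurons. Atp1b1 was at 179 CPM in the 19 nuclei with Tns1 and at 276 CPM in the 52 without it.

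Without the library labelled cervical 2, the S2 values of Atp1b1 ended at 131 CPM and lay below every S3 value, which held for 3.82% of genes. With it the ranges overlapped, and 5.61% of genes had S2 and S3 values that did not overlap in either direction. The log2 fold change was then -1.12 (SE 0.08) for S2 minus S3 (adjusted p = 6.16e-12, limma), and for S2 minus S1 it was -0.65 (SE 0.08, adjusted p = 2.37e-07, limma). Without replicate 1, and likewise without replicate 3, neither S2 minus S1 nor S1 minus S3 passed (adjusted p = 0.138 and 0.0622 without replicate 1, limma), while S2 minus S3 passed in every alternative run.

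**Figure D1:**
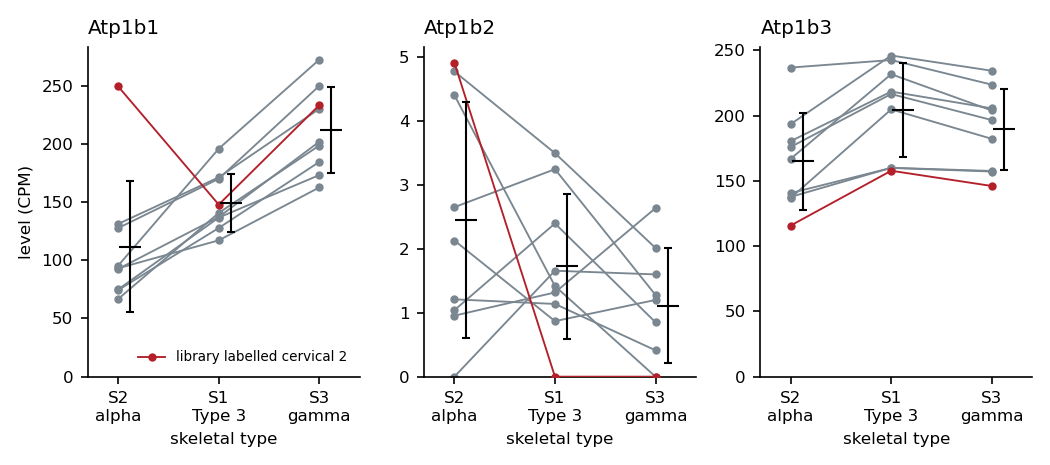
Level (CPM) of each beta subunit in the skeletal types S2, S1 and S3; each line joins the values of 1 library, black bars are the mean and SD over 9 libraries, and the library labelled cervical 2 is red. Atp1b1 rises from S2 to S3 in every library but the red one, Atp1b3 is lowest in S2 in 8 of 9, and Atp1b2 does not exceed 4.91 CPM.

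Single nuclei showed the same order. At least 1 corrected count of Atp1b1 was present in 56.9 ± 19.1% of S2 nuclei and in 80.4 ± 12.2% of S3 nuclei (SD, n = 9 libraries). S2 minus S3 was -23.5 percentage points, lower in 9 of 9 libraries (two-sided exact sign-flip test, p = 0.00391, the smallest that 9 libraries allow, adjusted p = 0.0176 over 9 comparisons). S1 had 70.3 ± 12.6%. S1 minus S3 was -10.1 points, below 0 in 9 of 9 (adjusted p = 0.0176, exact), and S2 minus S1 was -13.5 points, lower in 8 of 9 (adjusted p = 0.0352, exact).

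The shares were also taken after thinning each nucleus to 4000 corrected counts, which left out 32 S1, 16 S2 and 35 S3 nuclei. They were then 36.2 ± 11.95% in S2 and 57.2 ± 6.20% in S3 (exact sign-flip test, adjusted p = 0.0352, n = 9, lower in S2 in 8 of 9). S2 minus S1 did not pass after thinning (-8.70 points, exact sign-flip test, adjusted p = 0.231). Unthinned, S2 minus S1 also failed when any 1 library other than cervical 2 or cervical 3 was left out (adjusted p of at most 0.0703, exact sign-flip test).

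Counts of Atp1b1 were found in every cluster, and its lowest mean share was 53.3 ± 14.1% in I8 (SD, n = 8). Free RNA in the droplets could add counts to all types, and its part was not tested. Over all libraries, 7.08% of S2, 12.2% of S1 and 21.95% of S3 nuclei held 3 or more corrected counts of Atp1b1, and no skeletal nucleus held more than 13.

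**Figure D2:**
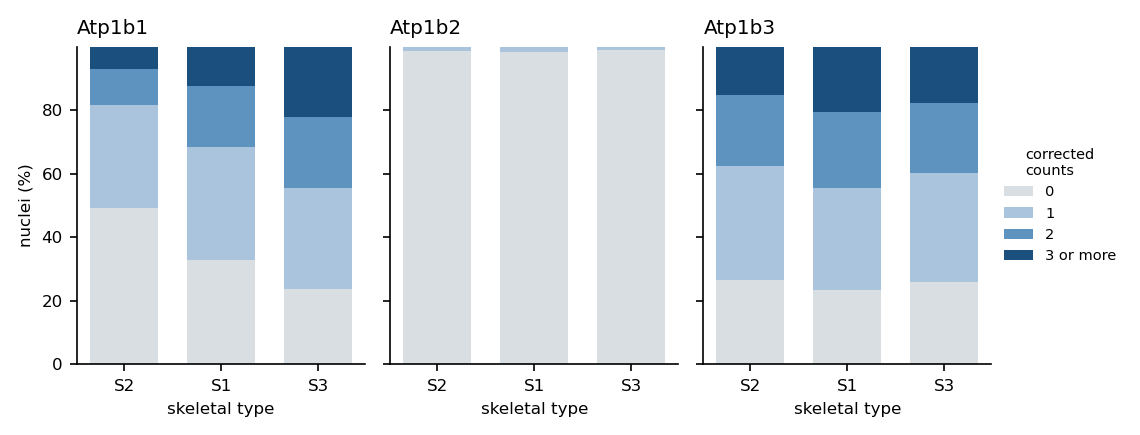
Percentage of nuclei with 0, 1, 2 and 3 or more corrected counts of each beta subunit in S2 (1285 nuclei), S1 (1528) and S3 (2241), all libraries pooled, so nuclei and not replicates are shown. The share without Atp1b1 is 49.2% in S2, 32.9% in S1 and 23.6% in S3, the share without Atp1b3 is 26.5%, 23.3% and 25.9%, and almost all nuclei are at 0 for Atp1b2.

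Atp1b3, a beta subunit found in many tissues, differed less between the skeletal types. It lay at 165 ± 36.9 CPM in S2 (SD, n = 9), from 116 in cervical 2 over a median of 167 to 237 in cervical 3, and at 190 ± 31.0 CPM in S3, from 146 over 197 to 234. S1 was highest at 204 ± 36.1 CPM (SD, n = 9), from 158 over 217 to 246. S2 was the lowest of the 3 types in 8 of 9 libraries, the exception being cervical 3, but the ranges of all 3 overlapped.

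The log2 fold change of Atp1b3 was -0.21 (SE 0.06) for S2 minus S3 (adjusted p = 0.00584, limma) and -0.31 (SE 0.06) for S2 minus S1 (adjusted p = 1.56e-04, limma). For S1 minus S3 it was 0.10 (SE 0.06, adjusted p = 0.281, limma), although S1 was higher in 9 of 9 libraries. The S2 minus S3 call was lost without replicate 1 (adjusted p = 0.118), without the library term (0.276) and within either set of libraries taken alone (0.108 in the 4 low in P2ry12 and 0.0820 in the 5 high in it, limma). The share of nuclei with a count of Atp1b3 was 76.3 ± 16.7% in S2 and 78.1 ± 10.5% in S3 (SD, n = 9), lower in S2 in 5 of 9 libraries (exact sign-flip test, adjusted p = 0.418).

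Atp1b2, the adhesion molecule on glia (AMOG), which pairs with alpha subunits mainly in astrocytes, was near 0 in every skeletal type. Its S2 level was 2.45 ± 1.84 CPM (SD, n = 9), from 0 in lumbar/sacral 1 to 4.91 in cervical 2, and each library's S2 value rested on 0 to 5 corrected counts. The value of 0 in lumbar/sacral 1 allows up to 3.94 CPM by counting error alone, at 3 counts. S3 had 1.11 ± 0.896 CPM and S1 1.72 ± 1.13 CPM (SD, n = 9). These levels did not reach the 10 CPM asked for in at least 3 sums, so Atp1b2 was not tested between types. A count of Atp1b2 was found in 1.88 ± 1.32% of S2 and 0.879 ± 0.882% of S3 nuclei (exact sign-flip test, adjusted p = 0.188, n = 9), a difference not detectable at this depth.

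Both Atp1b1 and Atp1b3 were found in 40.1% of S2 nuclei and in 57.6% of S3 nuclei, all libraries pooled. Nuclei with a count of Atp1b3 but none of Atp1b1 made up 33.5% of S2 and 16.5% of S3. Those with a count of Atp1b1 but none of Atp1b3 made up 10.7% and 18.8%. Means per nucleus were 0.825 corrected counts of Atp1b1 and 1.37 of Atp1b3 in S2, and 1.61 and 1.42 in S3. At such means a nucleus without a count may still hold the RNA. The CPM of Atp1b1 divided by that of Atp1b3 was 0.384 to 0.932 in S2 of 8 libraries and 2.15 in cervical 2, and 0.726 to 1.73 in S3. The log2 ratio fell by 0.78 from S3 to S2 (SD 0.48, 8 of 9 libraries, exact sign-flip test, adjusted p = 0.0117 over 3 ratios), so the subunits did not move in parallel. Because levels of different genes depend on their length, only this change of the ratio is compared, not its size.

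Other cell types were looked for in the same sums. The 9 astrocyte markers with a row summed to 114 to 214 CPM in S2 and 71.5 to 116 CPM in S3. Of them, 7 averaged under 2 CPM in S2 and 7 in S3. The other two were Slc4a4, which neurons also use and which is described with the exchangers, and the glutamate transporter gene Slc1a2, higher in S2 (24.1 ± 7.16 against 15.4 ± 3.21 CPM, SD, n = 9, log2 fold change 0.49, SE 0.16, adjusted p = 0.0184, limma). The 8 oligodendrocyte markers summed to 65.8 to 155 CPM in S2 and 33.4 to 77.4 CPM in S3, and Mbp, a myelin gene, was at 89.3 ± 30.9 CPM in S2, 88.3 ± 18.7 in S1 and 24.1 ± 4.07 in S3 (SD, n = 9), with a log2 fold change of 1.62 (SE 0.18) for S2 minus S3. The 5 microglial markers summed to 19.6 to 194 CPM in S2 and 22.8 to 148 CPM in S3. The 3 endothelial markers summed to 4.83 to 79.5 CPM in S2 and 4.11 to 19.8 CPM in S3. Their part in the differences of the beta subunits was not tested.

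Across the 21 clusters, Atp1b1 and Atp1b3 followed different orders. Atp1b1 was highest in I1, at 330 ± 172 CPM (SD, n = 9), followed by I2 (239 ± 93.9, n = 9) and I7 (220 ± 66.8, n = 6). S3 was the 5th of 21 and S1 the 10th. The lowest were I5 (117 ± 24.6, n = 9), S2 (112 ± 56.3, n = 9) and I8 (107 ± 39.0, n = 8), so by the mean alpha motor neurons stood next to the bottom. I8 had no sum in cervical 2, the library with the highest S2 value, and over the 8 libraries with both, S2 minus I8 was -0.13 on the log2 scale. By the median S2 was the lower of the pair, at 93.1 against 109.7 CPM. The means of the visceral clusters lay between 118 ± 58.9 CPM in V10 (n = 7) and 165 ± 60.9 in V8 (n = 3). V8 was measured in the lumbar/sacral libraries alone, and within them V8 minus V3, the next in the order, was -0.04.

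Atp1b3 was highest in S1, S3, I8 (182 ± 25.3 CPM, SD, n = 8) and S2, in that order. The interneurons I1 to I7 followed, from 71.9 ± 17.2 CPM in I1 to 116 ± 23.4 in I5 (n = 9 each). All 10 visceral clusters came last, from 37.4 ± 8.92 CPM in V1 (n = 9) to 52.9 ± 14.0 in V5 (n = 7). I1 thus had the highest Atp1b1 of all clusters and the lowest Atp1b3 among interneurons, and I8 had the lowest Atp1b1 and the highest Atp1b3 among them.

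Atp1b2 was highest in I1, at 14.1 ± 8.75 CPM (SD, n = 9), from 2.37 in cervical 3 to 28.3 in cervical 2, and next in I6 (9.13 ± 6.08), I7 (8.83 ± 6.76, n = 6) and I3 (8.72 ± 2.91). The I7 values rested on 0 to 3 corrected counts a library, with 0 in lumbar/sacral 3. Atp1b2 was at 0 corrected counts in at least 1 library of most other clusters. The 9 astrocyte markers summed to 54.0 to 107 CPM in I1, 7 of them under 2 CPM.

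Neighbours in these orders were mostly too close to tell apart. Of 60 neighbouring pairs, 20 for each gene, none passed the sign-flip test (exact, both sides) after adjustment, and 1 pair of Atp1b1, 2 of Atp1b3 and 0 of Atp1b2 did so before it. These were I1 above I2 for Atp1b1 (log2 difference 0.37, higher in 8 of 9 libraries, p = 0.0117, adjusted p = 0.234, exact). For Atp1b3 they were S1 above S3 (0.10) and S2 above I5 (0.49), each in 9 of 9 libraries (p = 0.00391, adjusted p = 0.117, exact). With 3 libraries, as for V8, the smallest possible p is 0.25.

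**Figure D3:**
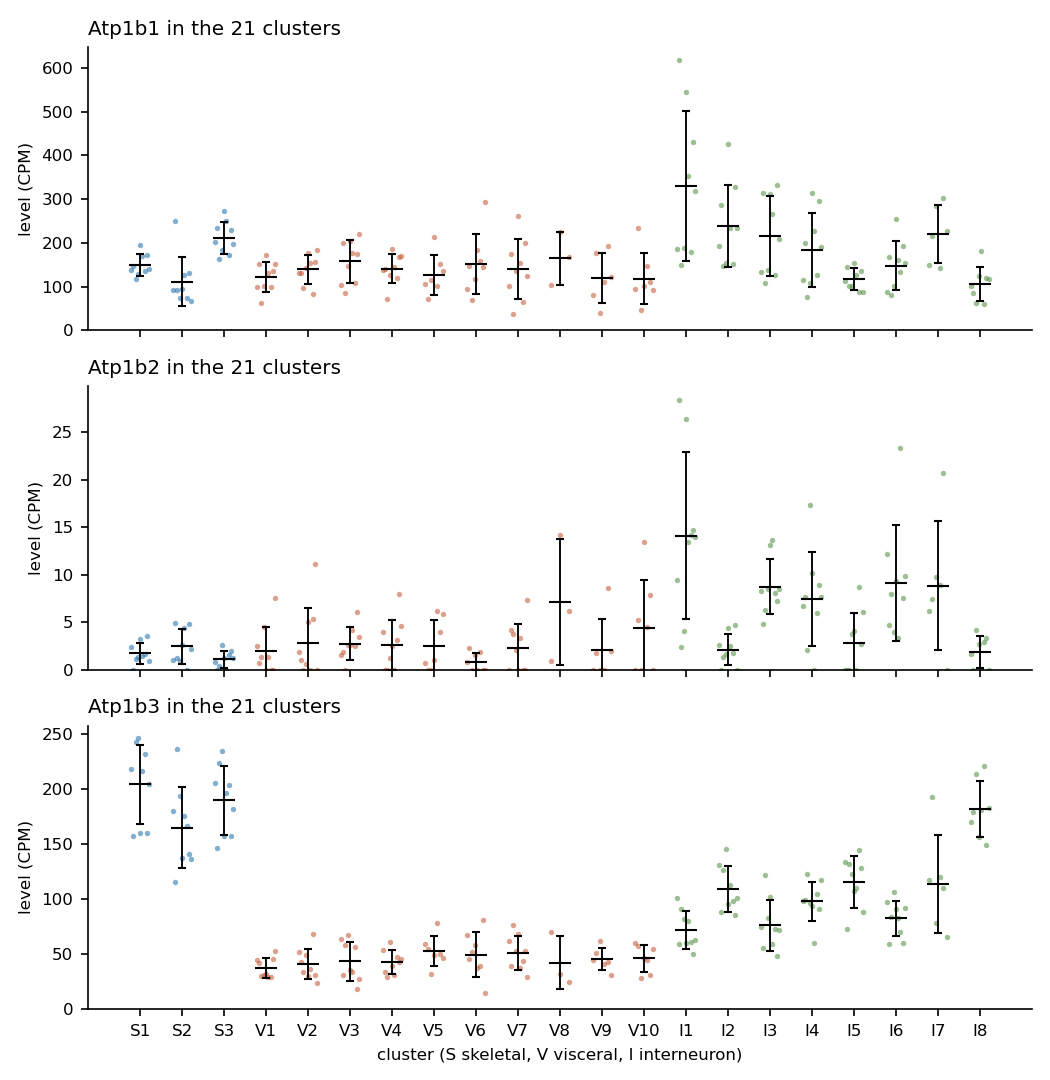
Level (CPM) of each beta subunit in the 21 clusters; points are libraries with at least 10 nuclei of the cluster, bars are the mean and SD, and each gene has its own axis from 0. Atp1b1 peaks in I1 and is low in S2 and I8, Atp1b3 separates S1 to S3 and I8 from the visceral clusters, and Atp1b2 stays under 29 CPM throughout.

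Of the beta subunits tested between classes, Atp1b3 had the larger differences. It was at 187 ± 33.0 CPM in skeletal motor neurons, from 137 over a median of 198 to 233, at 95.3 ± 15.6 CPM in interneurons, from 74.2 over 92.0 to 116, and at 45.1 ± 10.9 CPM in visceral motor neurons, from 32.8 over 41.9 to 64.2 (SD, n = 9 each). No library's value of one class reached the range of another. Such separation was found for 17.1% of 11292 genes between skeletal and visceral, 16.5% between skeletal and interneuron and 11.3% between interneuron and visceral sums. The log2 fold change was 1.95 (SE 0.07) for skeletal minus visceral (adjusted p = 2.24e-15, limma), 0.93 (SE 0.07) for skeletal minus interneuron (adjusted p = 4.47e-10) and 1.02 (SE 0.07) for interneuron minus visceral (adjusted p = 1.97e-10). Of all genes tested, 66.7% were called for skeletal minus visceral (30.1% higher and 36.7% lower), 59.5% for skeletal minus interneuron (31.7% and 27.8%) and 51.4% for interneuron minus visceral (19.9% and 31.4%).

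Atp1b1 differed less and in another order, at 217 ± 86.4 CPM in interneurons, from 117 over 219 to 343, 170 ± 40.6 CPM in skeletal, from 129 over 142 to 222, and 139 ± 41.6 CPM in visceral nuclei, from 68.0 over 149 to 195 (SD, n = 9 each). All 3 ranges overlapped. Interneurons were above visceral nuclei by a log2 fold change of 0.59 (SE 0.09, adjusted p = 9.7e-06, limma), and skeletal above visceral nuclei by 0.31 (SE 0.09, adjusted p = 0.00418). Skeletal nuclei were below interneurons by a log2 fold change of -0.28 (SE 0.09, adjusted p = 0.0105, limma). In the 4 libraries low in P2ry12 that last difference was 0.01 (adjusted p = 0.941), without both libraries whose Hox genes go against their labels it was -0.21 (adjusted p = 0.0969), and skeletal minus visceral in the 5 high ones was 0.20 (adjusted p = 0.0740, limma). Atp1b2 was at 7.51 ± 2.58 CPM in interneurons, from 3.09 to 12.05, 2.74 ± 2.20 in visceral, from 0.535 to 7.83, and 1.62 ± 0.605 in skeletal nuclei, from 0.855 to 2.77 (SD, n = 9). The interneuron and skeletal ranges of Atp1b2 did not overlap, as was found for 16.5% of the 11292 genes tested. Its skeletal values rested on 2 to 14 corrected counts a library. The gene was under the level needed for a test and is not among those 11292.

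Atp1b1 also differed between the sets of libraries. Over all nuclei, Atp1b1 was at 109 to 131 CPM in the 4 libraries low in P2ry12 and at 173 to 260 in the 5 high in it, with no overlap, and the same direction without overlap was found for 22.8% of 10107 genes. Atp1b3 went the other way, with 97.6 to 146 CPM in the 4 and 69.6 to 115 in the 5. Of the 14 clusters with 10 nuclei in every library, Atp1b1 was higher in all of the 5 than in any of the 4 in 9, and Atp1b3 lower in 3. S2 was in neither count. Atp1b2 was higher in all of the 5 in 1 cluster, S2, on 0 to 5 corrected counts a library. How often other genes separated in this way cluster by cluster was not counted, so these counts of clusters are descriptions.

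These sets were drawn from the data after they were seen and are not groups of the study. They match no label fully but overlap with the pools. The 4 are all libraries of replicate 1, the pool of both sexes, and cervical 3. The 5 are all libraries of replicate 2 and the rest of replicate 3. Genes spanning fewer bases were higher in the 5 libraries and genes spanning more were lower, and with genes ranked by span and cut into 5 equal bins the median log2 difference ran from 0.41 in the bin of shortest genes to -0.24 in that of the longest. Atp1b1 spans 21247 bases, in a bin with a median of 0.17, and differed by 0.73. Atp1b3 spans 31788 bases, in a bin with a median of 0.05, and differed by -0.41. The part of these measures in the levels of the beta subunits was not tested. The types and classes were compared within libraries, and S2 minus S3 of Atp1b1 was -1.07 in the 4 (adjusted p = 1.96e-08, limma) and -0.92 in the 5 (adjusted p = 0.00371).

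**Figure D4:**
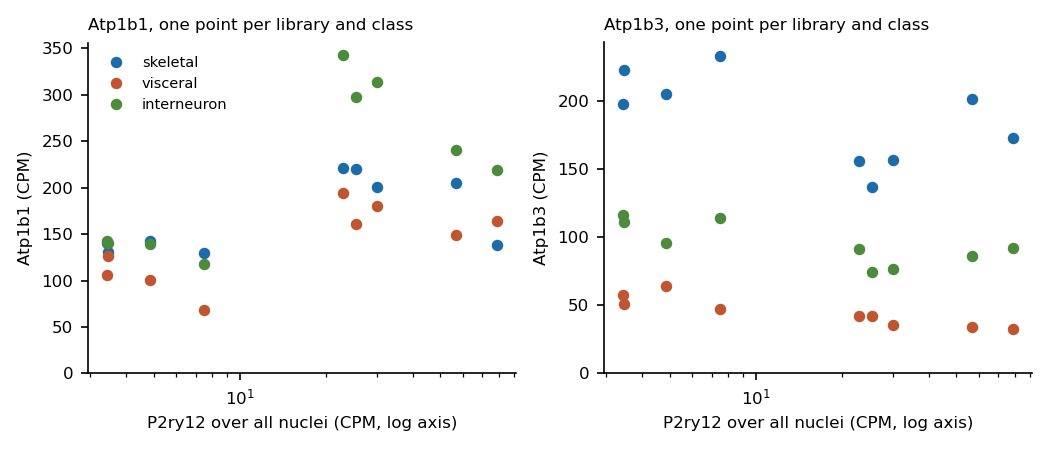
Level of Atp1b1 and Atp1b3 (CPM, linear axis from 0) in each class, 1 point per library, against P2ry12 over all nuclei of that library (CPM, log axis). The 4 libraries at 3.45 to 7.51 CPM of P2ry12 have 117 to 142 CPM of Atp1b1 in interneurons and the other 5 have 219 to 343, while for Atp1b3 the classes keep their order in every library.

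Regions of the cord did not differ detectably in the beta subunits. In S2, lumbar/sacral minus the mean of cervical and thoracic was -0.35 (SE 0.33) on the log2 scale for Atp1b1 and -0.19 (SE 0.22) for Atp1b3 (adjusted p = 0.975 for both, limma). In S3 the same differences were -0.10 (SE 0.16, adjusted p = 0.899) and -0.08 (SE 0.17, adjusted p = 0.907). Of all genes, 0% of 10387 in S2, where 245 had an unadjusted p under 0.05, and 0.0711% of 9841 in S3 (0.0508% higher and 0.0203% lower) were called by limma. The median of all genes was 0.13 in S2 and 0.14 in S3. A replicate block for the shared pools of mice raised these calls to 1 and 12 genes, and neither beta subunit was among them.

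Thoracic minus cervical gave -0.40 (SE 0.38, adjusted p = 0.646, limma) for Atp1b1 and -0.03 (SE 0.25, adjusted p = 0.966) for Atp1b3 in S2. The median of all genes was 0.27 in that comparison. Without both libraries whose Hox genes go against their labels, the value of Atp1b1 was 0.07 (adjusted p = 0.972). In S3 the values were 0.23 (SE 0.19) and 0.04 (SE 0.20, adjusted p = 0.935 and 0.981, limma). Thoracic minus cervical gave 0 called genes in S2 (882 at an unadjusted p under 0.05, limma) and 0 in S3 (303). The difference of S2 minus S3 itself did not vary detectably with region either, at -0.25 (SE 0.24) for Atp1b1 and -0.11 (SE 0.15) for Atp1b3 (adjusted p = 0.999 for both, limma), and 0 genes were called (280 at an unadjusted p under 0.05).

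The pools of males and of females, 3 libraries each, were compared with a term for the region. Male minus female was 0.63 (SE 0.32) for Atp1b1 and -0.44 (SE 0.24) for Atp1b3 in S2 (adjusted p = 0.607 and 0.633, limma), and 0.28 (SE 0.12) and -0.37 (SE 0.13) in S3 (adjusted p = 0.468 and 0.422). Of all genes, 0.0308% were called in S2 (0.0206% higher and 0.0103% lower) and 0.0313% in S3 (0.0209% and 0.0104%). The median of all genes was -0.13 in S2. Cervical 3 is the only one of these 6 libraries low in P2ry12. Without thoracic 2 or without thoracic 3, fits with few residual degrees of freedom, the S2 difference of Atp1b1 was 1.15 and passed (adjusted p = 0.0115 and 0.0109, limma). Over the runs that each left out 1 library, that difference ranged from 0.26 to 1.15. Thoracic cord, which both passing runs weaken, had the lower male value, at 95.4 CPM in thoracic 2 against 128 in thoracic 3. The highest male value was the 249 CPM of cervical 2, where 52 of 71 S2 nuclei had no Tns1 count. Since each sex was 1 pool of 4 mice, sex and pool cannot be told apart.

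Across the means of the 21 clusters, Atp1b1 and Atp1b3 had a Pearson r of 0.17, Atp1b1 and Atp1b2 of 0.57, and Atp1b2 and Atp1b3 of -0.03. Clusters share their libraries, so these are descriptions. Of 10842 genes with 10 CPM in at least 3 clusters, those most like Atp1b3 included Rap1gap, which turns off the GTPase Rap (r = 0.94), the potassium channel gene Kcna2 (0.93), 4933413L06Rik (0.93) and Trim43c (0.92). Those most like Atp1b1 were the transcription factor genes Irx1 (0.85) and Irx2 (0.84), Ipcef1 (0.84), AC165271.1 (0.83) and Otof (0.83), which encodes a calcium sensor of vesicle release. For Atp1b2 they were Slc27a2 (0.84), Kdm2b (0.83), the glutamate transporter gene Slc1a6 (0.83), the transcription factor gene Ebf3 (0.82) and Ap1s3 (0.81). By rank these values were lower, with a Spearman rho of 0.59 to 0.71 for the genes named for Atp1b1. For those of Atp1b2 rho was 0.56 to 0.76, and for those of Atp1b3 0.81 to 0.92. Atp1b1 and Atp1b2 had a rho of 0.35.

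Of the other relatives of the pump, Atp1b4, the nongastric proton pump gene Atp12a and Atp4a averaged 0 to 0.753 CPM in S2 and S3, and none was tested. Of 7 FXYD regulators listed, 6 had a row and 3 were tested. Fxyd4, Fxyd5 and Fxyd7 were each called higher in S2, as were 17.6% of all genes tested. Fxyd5 reached 10 CPM in S2 sums alone, so the filter fixed its direction, and it adds no support to that count. Fxyd7, a brain form that modulates the pump, was at 65.2 ± 32.8 CPM in S2, from 12.8 in cervical 2 over 72.4 to 122, and at 16.9 ± 5.88 CPM in S3, from 7.82 over 18.5 to 26.1 (SD, n = 9), a log2 fold change of 1.55 (SE 0.18, adjusted p = 1.75e-07, limma). Fxyd5 was at 14.0 ± 11.1 against 2.95 ± 0.842 CPM, a fitted difference of 1.01 (SE 0.24) given as a description, and Fxyd4 was higher by 0.73 (SE 0.15, adjusted p = 4.30e-04, 26.5 ± 15.1 against 13.8 ± 8.03 CPM).

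The NKAIN genes encode membrane proteins that bind the beta subunit of the pump, and 3 of 4 were tested. Nkain2 was higher in S2, at 3071 ± 999 against 1929 ± 390 CPM (SD, n = 9), by a log2 fold change of 0.62 (SE 0.10, adjusted p = 2.22e-05, limma). Nkain3 was lower in S2, at 467 ± 79.3 against 581 ± 147 CPM (-0.29, SE 0.08, adjusted p = 0.00783). Nkain1 was at 13.8 ± 7.75 against 19.6 ± 3.71 CPM (-0.48, SE 0.17, adjusted p = 0.0354), a call that 12 of 22 alternatives lost. The calls of Fxyd7 and Nkain2 were kept in every alternative in which the gene was tested, that of Nkain3 was lost in 4 of 23 and that of Fxyd4 in 2 of 22.

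The ion transport linked to the pump changed in both directions. Of 7 calcium pumps, 5 were tested, 3 were lower in S2 and 0 higher, and of 18 exchangers and cotransporters that use the sodium gradient, 14 were tested, 4 were higher and 5 lower. Of all genes tested, 17.6% were higher in S2 and 13.5% lower. Slc9a2, among the 5, reached 10 CPM in no S2 sum, so the filter fixed its direction. Of the potassium chloride cotransporters only Slc12a5 was tested, at 0.05 (SE 0.07, adjusted p = 0.698, limma). Medians over the tested genes were -0.16 for calcium pumps and 0.02 for exchangers, beside 0.01 over all genes. The largest difference was that of Atp2b4, a calcium pump of the plasma membrane, with 27.5 ± 21.5 CPM in S2, from 4.40 over 30.5 to 60.5, and 140 ± 30.6 CPM in S3, from 86.0 over 146 to 182 (SD, n = 9). No S2 value reached the S3 range, and the log2 fold change was -2.47 (SE 0.24, adjusted p = 5.13e-09, limma).

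The sodium calcium exchangers were split. Slc8a1, which exports calcium against sodium, had 224 ± 118 CPM in S2 and 652 ± 193 in S3 (SD, n = 9), a log2 fold change of -1.66 (SE 0.19, adjusted p = 9.26e-08, limma). Its relative Slc8a3 was higher in S2, with 283 ± 68.7 against 162 ± 36.9 CPM (0.79, SE 0.06, adjusted p = 5.11e-11). The sodium proton exchanger gene Slc9a2 was at 1.78 ± 2.24 CPM in S2, with 0 in 2 libraries, and 15.2 ± 4.83 in S3, with a fitted log2 difference of -1.59 (SE 0.18) that its selection by the filter makes a description and not a test.

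Among carriers of bicarbonate, Slc4a4 was higher in S2 (135 ± 44.4 against 73.9 ± 16.4 CPM, SD, n = 9, 0.78, SE 0.15, adjusted p = 1.63e-04, limma), while Slc4a10 (369 ± 41.5 against 468 ± 52.2 CPM, -0.34, SE 0.07, adjusted p = 1.92e-04) and Slc4a8 (-0.33, SE 0.09, adjusted p = 0.00769) were lower. The calcium pump gene Atp2b1 was lower in S2, at 287 ± 55.4 against 362 ± 48.4 CPM (-0.34, SE 0.06, adjusted p = 1.37e-04).

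**Figure D5:**
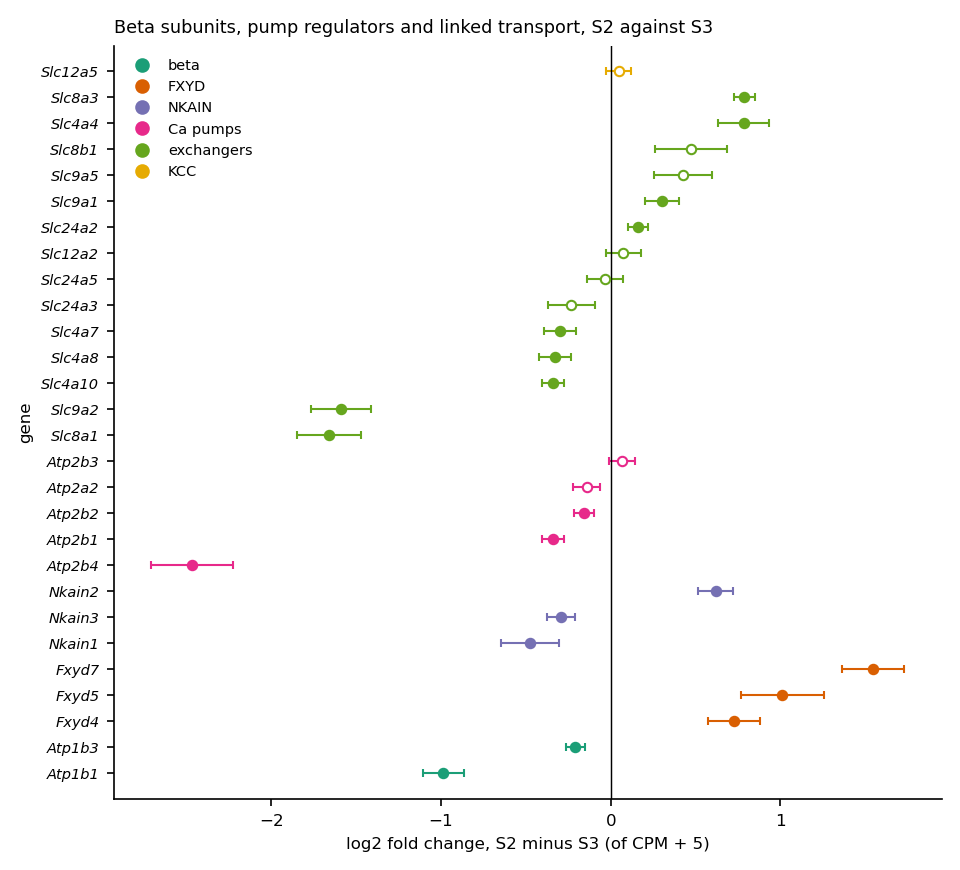
Log2 fold change of S2 minus S3 with its standard error for the beta subunits and the tested genes of pump regulators and linked ion transport, from the limma fit on log2 of CPM plus 5; filled points have an adjusted p under 0.05, KCC marks the potassium chloride cotransporters. Atp1b1 at -0.99 lies below Atp1b3 at -0.21, the 3 FXYD genes, of which Fxyd5 passed the filter through S2 alone, lie between 0.73 and 1.55, and Atp2b4 at -2.47 lies farthest left.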

How the data were processed

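Nuclei marked by Sun1-sfGFP were sorted from the spinal cords of 12 mice and sequenced as 9 libraries. Per the labels, the authors used Cell Ranger 3.1.0 and Seurat, and the genome was mm10. The deposited matrix holds whole numbers from a regression model (SCTransform) that removes the depth of each nucleus. They are treated as a score made by the authors and not as raw counts, so no count model was used. The depth in reads of each library is not given. Cluster, class and library of each nucleus come from the labels deposited by the authors. Columns with no sample of this series numbered 0.

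Corrected counts were summed per library and cluster, type or class with at least 10 nuclei and scaled to CPM. limma 3.58.1 (R 4.3.3, trend) was fitted to log2(CPM + 5). A gene was tested if 3 or more sums reached 10 CPM, and called at a Benjamini-Hochberg adjusted p under 0.05. Fold changes on that scale understate those of low genes. Fits of types and classes had a term for the library. Those of regions had none, and a replicate block was the alternative, because same-numbered libraries come from the same pool of mice. Such libraries deviated together in each pair (correlations of 0.26 to 0.83 over genes) except those with cervical 3 (-0.22 to 0.06). Libraries of 1 pool share mice, so p-values over 9 libraries do not measure the spread between 9 sets of animals. Shares and ratios were tested by exact sign flips over libraries (512 for 9). Floors of 3 counts cover counting error only. Scrublet (scanpy 1.11.5) marked 173 of 16042 nuclei as doublets, which were kept and left out as an alternative. Scripts were tested on simulated data.

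Named were the beta subunits, each tested gene of the related pump, FXYD and NKAIN lists, the 8 called genes with the largest change between S2 and S3 in the other lists, and the 5 genes most like each beta subunit. Some genes that this rule names are not reported here. The members and lists were chosen with earlier results of these data known. The alternatives without both libraries whose Hox genes go against their labels (for types, classes and the difference by region) and within the sets split by P2ry12 were chosen after seeing the data. Positions are from GENCODE M21, and promoter sequences were matched for 2 of the 3 beta subunits.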

Additional observations from a re-analysis of the deposited data

Results flagged for a closer look

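In the library labelled cervical 2, Atp1b1 stood apart from the other 8 libraries in S2, at 249 CPM. Its log2 difference of S2 minus S3 was 0.0941, where the others were negative, and its difference of S2 minus S1 was 0.735, likewise the only positive one. These 3 values rest on the same sum of 71 nuclei, of which 52 had no Tns1 count. Chance alone would set apart about 1 in 20 of the 24 groups of values looked at. The part of the nuclei without Tns1 in these values was not tested.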

How the results depend on the processing

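Of 789 values recomputed under an alternative, 704 kept their direction and side of the threshold. S2 minus S3 of Atp1b1 did so in all of them. In the 5 libraries high in P2ry12 alone, Atp1b1 was -0.51 for S1 minus S3, -0.41 for S2 minus S1 and 0.20 for skeletal minus visceral, and Atp1b3 was -0.24 for S2 minus S3, all no longer past the threshold. In the 4 low ones, Atp1b3 was -0.16 for S2 minus S3 and Atp1b1 0.011 for skeletal minus interneuron. Without both libraries whose Hox genes go against their labels, that last value was -0.21. With no library term, that is no replicate block, Atp1b3 was -0.31 for S2 minus S1 and -0.21 for S2 minus S3 and did not pass. The ratio of Atp1b3 to Atp1b2 was -0.84 at a pseudocount of 1 and did not pass. The share of S2 minus S1 for Atp1b1 did not pass at 2 or more corrected counts (-10.1 points).

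Counts of genes called were 1773, 1132 and 1197 for S2 minus S3, S2 minus S1 and S1 minus S3 in the 5 libraries, 1846, 1636 and 1348 with at least 10 corrected counts in every sum, and 1930 for S2 minus S1 with no library term. Leaving out a library or pool gave 2221 (without replicate 1) to 4994 (without cervical 2), 1650 to 4286 and 1456 to 2829. It gave -0.65 to -0.40 for Atp1b1 in S2 minus S1, -0.51 to -0.47 in S1 minus S3, and -0.24 to -0.18 for Atp1b3 in S2 minus S3.

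For regions, the replicate block called 1 gene in S2 for each contrast and 12 in S3 for lumbar/sacral, and changed no call of a beta subunit. S3 lumbar/sacral otherwise gave 3 genes with median of ratios scaling, 17 with no filter, 2 at a pseudocount of 1, 3 without both Hox libraries, and 0 to 4 leaving out a library. Without both Hox libraries the difference of S2 minus S3 by region gave 4 genes (0 to 2 leaving out a library) and S3 thoracic minus cervical 2. There Atp1b1 turned to 0.069 for S2 thoracic minus cervical and 0.014 for S3 lumbar/sacral, and Atp1b3 for S3 thoracic minus cervical turned to -0.074 with median of ratios scaling. Leaving out a library gave, in S2 thoracic minus cervical, -0.63 to 0.059 for Atp1b1 and -0.30 to 0.20 for Atp1b3, in S3 thoracic minus cervical -0.14 to 0.18 for Atp1b3, and in S3 lumbar/sacral -0.17 to 0.011 for Atp1b3.

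For the pools by sex, genes called were 0 in S2 and 0 in S3 with at least 10 corrected counts in every sum, 6 and 6 with median of ratios scaling, 74 in S2 with no filter and 5 in S2 at a pseudocount of 20. Leaving out a library gave 1 to 237 in S2 and 0 to 1187 in S3, and 0.26 to 1.15 for Atp1b1 in S2. The cause of these changes was not tested. With 0 to 8 corrected counts of Atp1b2 a library in each skeletal type, no difference in that gene could be resolved.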
